A study of Rattus norvegicus with 14 samples.

Results

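The genes described here encode integrins and laminins in the foreskin of newborn rats. They were the probe sets whose annotation gave exactly 1 gene symbol, of the forms Itga, Itgb, Lama, Lamb or Lamc followed by a member's own number or letter, and 27 of the 14497 genes tested met this rule. Each of the 27 genes had 1 such probe set, so no choice between probe sets was needed. Other genes with such symbols, among them Itga3, Itgav, Lama2 and Lamb1, were not analysed here. The tissue came from Sprague Dawley pups on postnatal day 5, whose dams were gavaged daily on gestational days 16 to 20. In 7 litters the dam received 5 mg/kg/day flutamide, a drug that blocks the androgen receptor, and in the other 7 litters the dam received corn oil, the vehicle. The labels name no other treatment, and the RNA of 2 pups was combined for each litter, which makes the litter the unit of replication. An Affymetrix Gene 1.0 ST array per litter gave a log2 value per probe set after RMA, a method that corrects background, normalises arrays and combines the probes of a probe set.

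Integrins are receptors built of an alpha and a beta chain that hold cells to the matrix around them, and laminins are cross-shaped proteins of an alpha, a beta and a gamma chain that form the backbone of basement membranes. In skin, basal keratinocytes are riveted to the basement membrane by hemidesmosomes, in which the integrin of Itga6 and Itgb4 binds an epidermal laminin that contains the chains of Lama3 and Lamb3. Fibroblasts, muscle and vessels use other sets of integrins that mostly contain the Itgb1 chain, and leukocytes use integrins with the Itgb2 and Itgb7 chains. The members were therefore read in classes, with 4 hemidesmosome genes, 3 other epithelial integrins, 13 genes of stroma and general basement membrane, and 7 leukocyte integrins. Values of different probe sets are on their own scales and are not ranked against each other.

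The laminin genes Lama3 and Lamb3 encode chains of 1 protein and lie on different chromosomes, and their promoters are shown. The promoter set used here had no entry for the other hemidesmosome genes, Itga6 and Itgb4. Each line gives the 250 bases before the gene's start on the plus strand, from RefSeq on GRCr8, at chr18:3952517-3952766 for Lama3 and at chr13:107362303-107362552 for Lamb3. Capitals mark TGANTCA, the letters of the AP-1 site, which reads alike on both strands and through which AP-1 is known to drive the human gene of the laminin alpha3 chain.
Lama3: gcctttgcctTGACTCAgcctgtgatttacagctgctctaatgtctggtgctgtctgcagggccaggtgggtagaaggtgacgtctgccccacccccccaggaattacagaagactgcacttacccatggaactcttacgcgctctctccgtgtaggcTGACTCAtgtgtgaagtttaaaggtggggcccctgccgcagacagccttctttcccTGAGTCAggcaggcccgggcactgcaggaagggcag
Lamb3: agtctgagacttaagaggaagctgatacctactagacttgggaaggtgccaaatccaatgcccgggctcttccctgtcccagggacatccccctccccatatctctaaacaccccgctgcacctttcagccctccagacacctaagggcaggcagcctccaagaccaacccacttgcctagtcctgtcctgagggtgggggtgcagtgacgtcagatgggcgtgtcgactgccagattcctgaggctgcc
The Lama3 window held 3 matches and the Lamb3 window 0. Of the 19 members with a promoter in the table, Lama3 was the 1 with a match, while 6.34% of all 33469 promoters had one. AGAACA, a core of the androgen response element, searched on both strands, occurred in the promoters of 3 of the 19 members, which were Itga2, Itga10 and Lamc3, and no member held both motifs. That is 15.8% of these members, against 17.5% of all promoters. A match is only a description of these letters, and the RefSeq start is 1 of the starts a gene may use.

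No integrin or laminin gene passed the test between flutamide and corn oil litters. The comparison asked whether prenatal exposure to the antiandrogen changed gene expression in the foreskin. With limma's moderated test and Benjamini-Hochberg adjustment over all genes tested, 0 of the 27 members had an adjusted p under 0.05, where 0.0069% of all genes did, and their adjusted p ran from 0.629 to 0.999. At an unadjusted limma p under 0.05 there were 0 of 27, where 9.16% of all genes were, and the exact permutation test likewise gave 0 of 27, against 8.47% of all genes. The groups overlapped for every one of the 27 members, and did not for 0.124% of all genes. Values in flutamide litters were lower on average for 17 members and higher for 10, where 47.7% of all genes were lower, and the median log2 difference was -0.010 over the members and 0.0048 over all genes. With each litter centred on its own median the split was 19 lower and 8 higher, and after quantile normalization 18 lower and 9 higher. The split differed with level. Of the 15 members above the median level of all genes 13 were lower and 2 higher, with a median log2 difference of -0.06, where 54.8% of all genes above that level were lower, with a median of -0.0087. Of the 12 members at or below it 4 were lower and 8 higher, where 40.7% of all genes there were lower. The median over all 27 members ran from -0.036, without corn oil replicate 6, to -0.0087, without corn oil replicate 7, with single litters left out, and was -0.022 with each litter centred. These are foreskins measured whole, in which fewer cells of a type and less RNA per cell cannot be told apart.

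The arrays bounded the size of a change gene by gene, with 95% confidence intervals that were not adjusted for the 27 members. A 1.3-fold change in either direction lay outside the 95% confidence interval for 27 of 27 members, and for 92.9% of all genes. A 1.2-fold change lay outside it for 24 of 27, against 70.1% of all genes, and the other three, named here after their values were seen, were Itga4, Itgb2 and Itgb8. Standard errors of the differences ran from 0.051 to 0.11 on the log2 scale. RMA shrinks differences of dim probe sets, so these bounds concern array values. They hold for the whole foreskin and do not bound a change within 1 cell type.

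**Figure D1:**
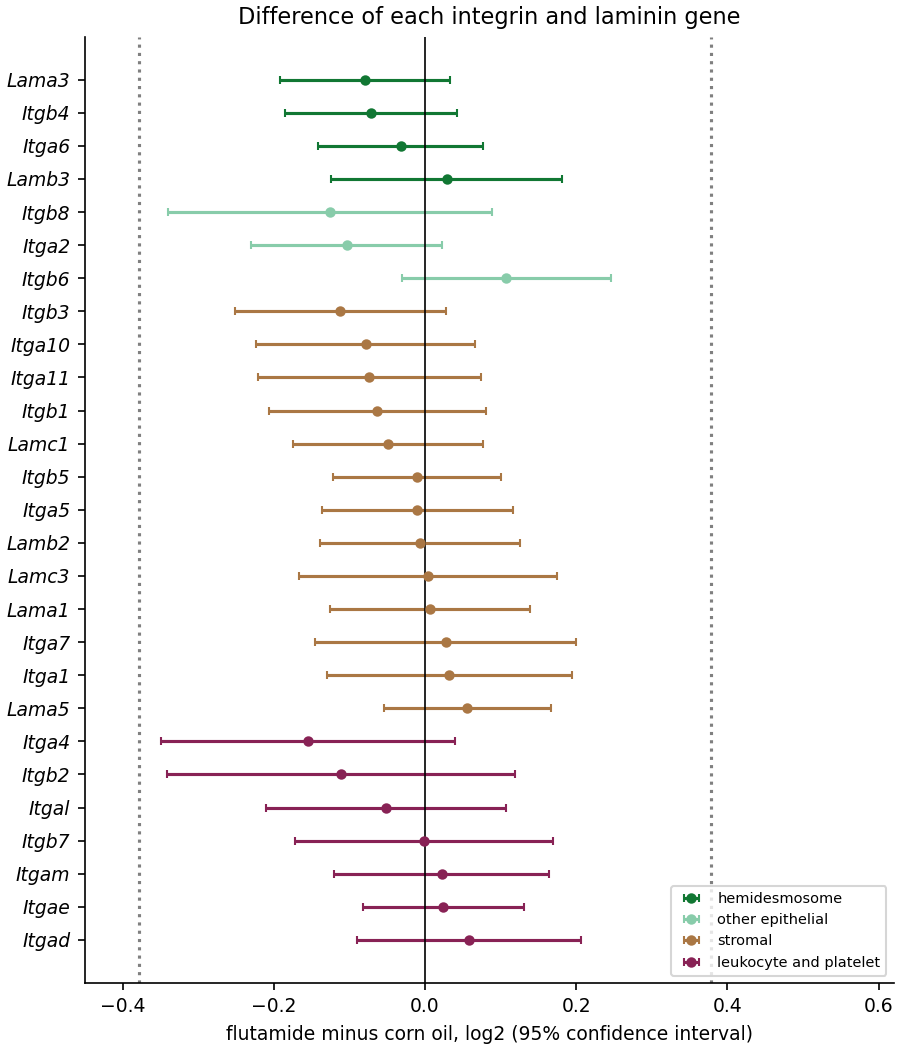
Difference of each of the 27 genes, flutamide minus corn oil litters, on the log2 scale (points), with limma's 95% confidence interval (bars, 7 litters per group), coloured by class. Dotted lines mark a 1.3-fold change in either direction, and all 27 intervals lie between them.

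None of the 4 hemidesmosome genes passed, and 3 of them had slightly lower means in flutamide litters. Itga6, the alpha6 chain shared by the hemidesmosome integrin and an integrin with Itgb1, had log2 values from 8.79 to 8.96 with a median of 8.89 in flutamide litters, against 8.82 to 9.06 with a median of 8.92 in corn oil litters. Flutamide replicate 7 was its lowest litter and corn oil replicate 7 its highest. The difference was -0.03 (SE 0.05, 95% interval -0.14 to 0.08), with a limma adjusted p of 0.897. Itgb4, the beta4 chain whose long cytoplasmic tail joins the keratin cytoskeleton, ran from 6.85 to 7.04 with a median of 6.96 in flutamide litters, and from 6.92 to 7.18 with a median of 7.02 in corn oil litters. Corn oil replicate 5 stood at the top, and 5 of 7 flutamide litters lay below the corn oil median. Its log2 difference of -0.07 (SE 0.05, 95% interval -0.19 to 0.04) had a limma adjusted p of 0.733.

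Lama3, the laminin alpha3 chain, ran from 6.06 to 6.24 with a median log2 value of 6.19 in flutamide litters, and from 6.16 to 6.38 with a median of 6.21 in corn oil litters. Flutamide replicate 7 lay lowest and corn oil replicates 4, 6 and 7 lay above every flutamide litter. With a log2 difference of -0.08 (SE 0.05, 95% interval -0.19 to 0.03) it had the smallest limma p of the class, 0.154, and an adjusted p of 0.694. Lamb3, the laminin beta3 chain, ran from 5.44 to 5.88 with a median log2 value of 5.52 in flutamide litters, and from 5.42 to 5.79 with a median of 5.55 in corn oil litters. Its highest litter of each group was replicate 6, which stood above the others of that group. Its log2 difference was 0.03 (SE 0.07, 95% interval -0.12 to 0.18; limma adjusted p = 0.942), the 1 positive value among the hemidesmosome genes. The class had a median log2 difference of -0.05.

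**Figure D2:**
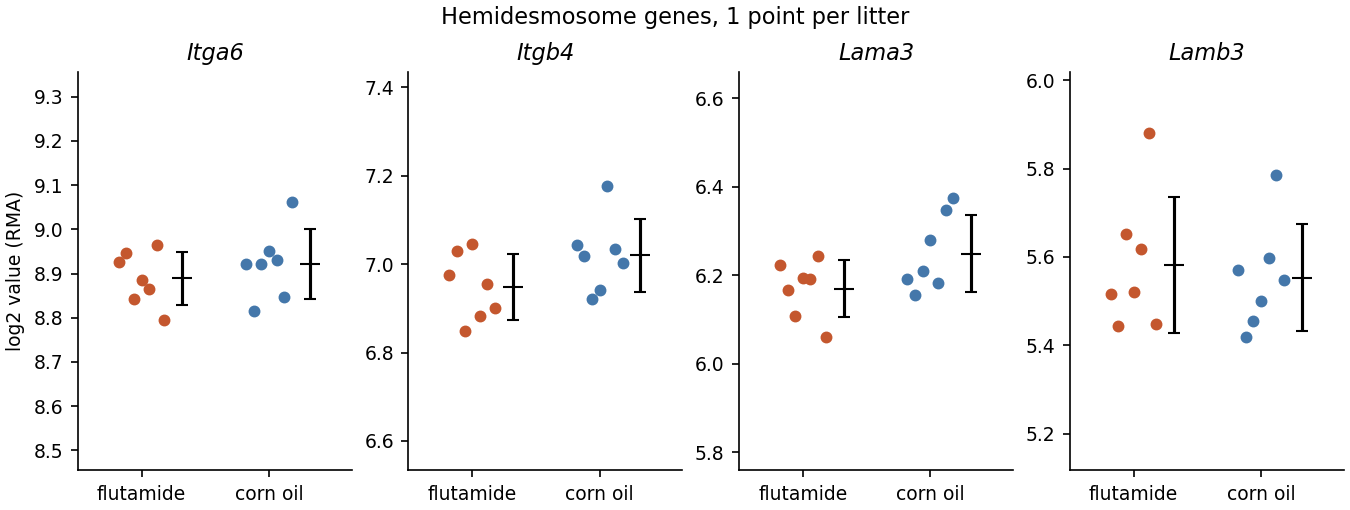
Log2 values of Itga6, Itgb4, Lama3 and Lamb3, 1 point per litter, with the mean and SD of 7 litters beside each group. Every vertical axis spans the same range of log2 units, the flutamide and corn oil points overlap in all panels, and Lamb3 is the most spread.

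Genes that work with the hemidesmosome or mark basal keratinocytes also did not pass. Of 6 listed partners, 4 were measured and 0 passed, with 0 at an unadjusted limma p under 0.05, where 9.16% of all genes were. The median log2 difference of the partners was -0.04. Cd151, a tetraspanin that binds laminin-binding integrins, had the smallest p and differed by -0.13 on the log2 scale (SE 0.09; limma adjusted p = 0.683). Krt14, the keratin of basal cells, had log2 means of 9.82 ± 0.16 in flutamide and 9.87 ± 0.12 in corn oil litters (SD, n = 7 each). The difference was -0.06 (SE 0.07; limma adjusted p = 0.863). The basal keratinocyte list had 3 of 6 genes measured, Krt14, Krt15 and Col17a1, and its mean log2 level per litter ran from 8.41 to 8.66 in flutamide litters, against 8.49 to 8.70 in corn oil litters. Krt15, a keratin of basal and follicle stem cells, differed by -0.06 (SE 0.08), and Col17a1, the transmembrane collagen of the hemidesmosome, by -0.03 (SE 0.05).

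None of the 3 other epithelial integrins passed, and 2 had lower and 1 higher means in flutamide litters, with a median log2 difference of -0.10. Itga2, the alpha2 chain of a collagen receptor of keratinocytes, ran from 6.58 to 6.90 with a median log2 value of 6.72 in flutamide litters, and from 6.71 to 6.97 with a median of 6.79 in corn oil litters. Of the flutamide litters, 6 of 7 lay below the corn oil median, and corn oil replicate 5 was the highest litter. Its log2 difference of -0.10 (SE 0.06, 95% interval -0.23 to 0.02) had the smallest limma p of all 27 members, 0.101, with an adjusted p of 0.629. Itgb6, the beta6 chain of an epithelial integrin that activates latent TGF-beta, ran from 7.11 to 7.39 with a median log2 value of 7.20 in flutamide litters, and from 6.88 to 7.28 with a median of 7.14 in corn oil litters. Flutamide replicate 2 lay highest, and corn oil replicates 1 and 2 lay below every flutamide litter. Its log2 difference was 0.11 (SE 0.07, 95% interval -0.03 to 0.25; limma adjusted p = 0.653), the highest of the 27. Itgb8, the beta8 chain of another activator of TGF-beta, differed by -0.13 (SE 0.10, 95% interval -0.34 to 0.09; limma adjusted p = 0.753), and flutamide replicate 4 was its lowest litter. With single litters left out this difference ran from -0.19, without corn oil replicate 2, to -0.06, without flutamide replicate 4.

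Among the 13 genes of stroma and general basement membrane, 8 had lower and 5 higher values in flutamide litters, and the median log2 difference was -0.01. Itgb3, the beta3 chain of vitronectin receptors on vessels and of the platelet fibrinogen receptor, ran from 6.82 to 7.18 with a median log2 value of 7.03 in flutamide litters, against 6.94 to 7.24 with a median of 7.15 in corn oil litters. Flutamide replicates 5 and 6 were lowest, and corn oil replicate 7 lay below the other corn oil litters. The log2 difference was -0.11 (SE 0.07, 95% interval -0.25 to 0.03; limma adjusted p = 0.642). Itga10, the alpha10 chain of a collagen receptor best known from cartilage, ran from 4.95 to 5.33 with a median log2 value of 5.14 in flutamide litters, and from 5.04 to 5.36 with a median of 5.17 in corn oil litters. Its ranges nearly coincided, and the log2 difference was -0.08 (SE 0.07; limma adjusted p = 0.771).

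Lama5, the laminin alpha5 chain of mature epithelial and vascular basement membranes, ran from 5.58 to 5.79 with a median log2 value of 5.69 in flutamide litters, and from 5.52 to 5.70 with a median of 5.63 in corn oil litters. Flutamide replicate 7 was its highest litter and corn oil replicate 1 its lowest. Its log2 difference was 0.06 (SE 0.05, 95% interval -0.05 to 0.17; limma adjusted p = 0.791). Itga11, the alpha11 chain of the collagen receptor of fibroblasts, ran from 5.72 to 6.14 with a median log2 value of 5.93 in flutamide litters, and from 5.87 to 6.20 with a median of 6.03 in corn oil litters. Flutamide replicate 2 lay below all other litters. The log2 difference was -0.07 (SE 0.07; limma adjusted p = 0.793).

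A further 7 genes of stroma and general basement membrane had close means in the 2 groups. Itgb1, the beta1 chain that pairs with most alpha chains here, had a log2 difference of -0.06 (SE 0.07, 95% interval -0.21 to 0.08), and Lamc1, the gamma1 chain of most laminins, of -0.05 (SE 0.06, 95% interval -0.17 to 0.08). Itgb5, a beta chain of vitronectin receptors, differed by -0.010 and Itga5, the alpha chain of the classical fibronectin receptor, by -0.010 on the log2 scale. Lamb2, a laminin beta chain of muscle, nerve and vessel basement membranes, differed by -0.0063, Lama1, the alpha chain of early embryonic laminin, by 0.0063, and Lamc3, a less common gamma chain, by 0.0038. Both Lama1 and Lamc3 turned negative when each litter was centred on its own median. Limma's adjusted p was at least 0.822 for these 7 genes.

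Itga7 and Itga1 had a wider spread among flutamide than among corn oil litters and similar means. Itga7, the alpha7 chain of the laminin receptor of skeletal muscle, had log2 means of 5.72 ± 0.22 in flutamide and 5.69 ± 0.06 in corn oil litters (SD, n = 7 each). Its flutamide litters ran from 5.39, in replicate 5, to 6.08, in replicate 7, on both sides of all corn oil litters, which lay between 5.61 and 5.75. Itga1, the alpha1 chain of a collagen receptor of smooth muscle and vessels, had log2 means of 6.61 ± 0.20 in flutamide and 6.58 ± 0.07 in corn oil litters (SD, n = 7 each). The mean log2 differences were 0.03 for both genes, with limma adjusted p of 0.951 for Itga7 and 0.938 for Itga1. These 2 genes were singled out after their values were seen, and the difference in spread was not tested. The collagen receptor chains Itga2, Itga10 and Itga11 had more alike SDs, with 0.13 in flutamide and 0.13 in corn oil litters for Itga11.

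None of the smooth muscle, pericyte or skeletal muscle markers passed the test. Of the 9 smooth muscle and pericyte markers, 0 passed, while 4 were at an unadjusted limma p under 0.05 and lower in flutamide litters. Over all genes 9.16% were at such a p, in either direction. The mean log2 level of the 9 markers per litter ran from 6.99 to 7.26 in flutamide litters, against 7.17 to 7.40 in corn oil litters. Higd1b, whose expression marks pericytes, differed by -0.38 (SE 0.07; limma adjusted p = 0.179), and Des, the muscle intermediate filament desmin, by -0.34 (SE 0.07; limma adjusted p = 0.302). The 6 skeletal muscle markers measured were all lower on average in flutamide litters without passing, where 47.7% of all genes were lower. The median log2 difference of the 6 markers was -0.18, and 1 of them, Ckm, was at an unadjusted limma p under 0.05. Their list means per litter ran from 6.01 to 6.50 in flutamide and from 6.16 to 6.59 in corn oil litters. Ckm, muscle creatine kinase, differed by -0.19 (SE 0.07; limma adjusted p = 0.443), and Tnni2, fast troponin I, by -0.22 (SE 0.12; limma adjusted p = 0.601).

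Endothelial and fibroblast markers gave no call. At an unadjusted limma p under 0.05 were 0 of 7 endothelium markers and 1 of 7 fibroblast markers, which was lower, where 9.16% of all genes were. On average 6 of the 7 endothelium and 3 of the 7 fibroblast markers were lower in flutamide litters, where 47.7% of all genes were. The 7 endothelium markers had list means per litter from 6.81 to 6.995 in flutamide litters, against 6.86 to 7.15 in corn oil litters. Tek, the angiopoietin receptor, differed by -0.18 (SE 0.10) and Pecam1, an endothelial adhesion molecule, by -0.12 (SE 0.08). The 7 fibroblast markers had list means from 9.35 to 9.54 in flutamide litters, against 9.35 to 9.50 in corn oil litters. Dpt, the dermal matrix protein dermatopontin, differed by -0.17 (SE 0.07; limma adjusted p = 0.457) and Col1a2, a chain of type I collagen, by 0.08 (SE 0.06). The part of these cell types in the stromal members' values was not tested.

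Of the 7 leukocyte integrins 4 had lower and 3 higher values in flutamide litters, with a median log2 difference of -0.0012. Itga4, the alpha4 chain that binds VCAM-1 and serves lymphocytes and muscle precursors alike, ran from 5.96 to 6.54 with a median log2 value of 6.26 in flutamide litters, and from 6.22 to 6.68 with a median of 6.32 in corn oil litters. Flutamide replicate 7 was lowest and corn oil replicate 5 highest. Its log2 difference of -0.15 (SE 0.09, 95% interval -0.35 to 0.04; limma adjusted p = 0.648) was the most negative of the 27. Itgb2, the beta2 chain common to the integrins of granulocytes, macrophages and lymphocytes, ran from 4.92 to 5.51 with a median log2 value of 5.25 in flutamide litters, and from 5.04 to 5.68 with a median of 5.42 in corn oil litters. Flutamide replicates 4 and 6 lay below every corn oil litter, and corn oil replicate 7 was above all others. The log2 difference was -0.11 (SE 0.11, 95% interval -0.34 to 0.12; limma adjusted p = 0.800), and it ran from -0.16, without flutamide replicate 7, to -0.05, without corn oil replicate 7, with single litters left out.

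Itgad, the alphaD chain of macrophages, ran from 5.13 to 5.49 with a median log2 value of 5.33 in flutamide litters, and from 5.09 to 5.43 with a median of 5.24 in corn oil litters. Its log2 difference was 0.06 (SE 0.07; limma adjusted p = 0.843). Itgal, the alphaL chain of lymphocytes, differed by -0.05 (SE 0.08), and Itgae, the alphaE chain of epithelial T cells that binds E-cadherin, by 0.02 (SE 0.05). Itgam, the alphaM chain of granulocytes and macrophages, differed by 0.02 (SE 0.07), and Itgb7, the beta chain of gut-homing and epithelial T cell integrins, by -0.0012 (SE 0.08), all on the log2 scale. Limma's adjusted p was at least 0.882 for these 4 genes.

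The other leukocyte and blood markers were read beside these integrins. Of 13 leukocyte markers measured 0 passed, with 1 higher and 1 lower at an unadjusted limma p under 0.05, against 9.16% of all genes. Their mean log2 level per litter ran from 5.53 to 5.99 in flutamide litters, against 5.57 to 5.87 in corn oil litters, and flutamide replicate 1, at 5.99, was the highest. Cd163, a scavenger receptor of macrophages, differed by -0.21 (SE 0.06; limma adjusted p = 0.348), and Cd3g, a chain of the T cell receptor complex, by 0.17 (SE 0.08; limma adjusted p = 0.542), at a log2 mean of 3.01 in flutamide and 2.84 in corn oil litters. With single litters left out the log2 difference of Itga4 ran from -0.20 to -0.11. The value of -0.20 was that without flutamide replicate 1 (limma adjusted p = 0.450). The 6 mast cell markers had list means per litter from 5.88 to 6.24 in flutamide litters, against 5.95 to 6.24 in corn oil litters, and Kit and Cpa3, a receptor and a protease of mast cells, differed by -0.10 (SE 0.06) and -0.14 (SE 0.10). The 5 platelet markers had list means from 5.81 to 5.98 in flutamide litters, against 5.68 to 6.03 in corn oil litters. Pf4, platelet factor 4, differed by -0.19 (SE 0.09; limma adjusted p = 0.520), and Gp5, a platelet membrane glycoprotein, by 0.15 (SE 0.12). The 4 Schwann cell markers measured had S100b, a calcium-binding protein, at 0.11 (SE 0.07) and Sox10, a neural crest transcription factor, at -0.06 (SE 0.07), with list means from 6.44 to 6.65 in flutamide and from 6.46 to 6.63 in corn oil litters. At an unadjusted limma p under 0.05 were 0 of 6 mast cell, 1 of 5 platelet and 0 of 4 Schwann cell markers, the platelet marker being Pf4. The part of these cells in the leukocyte members' values was not tested.

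The molecules that integrins and laminins act with also gave no calls. Over all genes 9.16% were at an unadjusted limma p under 0.05. Of 20 other basement membrane genes listed, 9 were measured and 0 passed, with 0 at an unadjusted limma p under 0.05. Agrn, the basement membrane proteoglycan agrin, differed by 0.09 (SE 0.06), and Col7a1, the collagen of the anchoring fibrils below hemidesmosomes, by 0.07 (SE 0.05). Of 21 genes of the adhesion machinery inside the cell 19 were measured and 0 passed, with 1 at an unadjusted limma p under 0.05. That gene was Tns1, the actin linker tensin 1, with log2 means of 6.46 ± 0.09 in flutamide and 6.59 ± 0.08 in corn oil litters (SD, n = 7 each). Its difference was -0.13 (SE 0.06; limma adjusted p = 0.505), and Sharpin, an inhibitor of integrin activation, differed by 0.12 (SE 0.06; limma adjusted p = 0.601). Among 19 measured integrin ligands of 21 listed, 0 passed and 1 was at an unadjusted limma p under 0.05. It was Icam1, a ligand of the Itgb2 integrins, with log2 means of 5.94 ± 0.10 in flutamide and 5.79 ± 0.14 in corn oil litters (SD, n = 7 each), a difference of 0.15 (SE 0.07; limma adjusted p = 0.516). Ltbp1, a binding protein of latent TGF-beta, differed by 0.11 (SE 0.07).

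The members varied between litters to different degrees. The SD of log2 values within groups was 0.14 at the median of all genes tested. It was 0.07 for Itga6, 0.08 for Lama3 and 0.08 for Itgb4, against 0.14 for Lamb3. Such a low SD was not particular to hemidesmosome genes, with 0.07 for Lama5 and 0.07 for Itgb5 of the stromal class. Itgae had the smallest SD of the 27, 0.06, and Itgb2 the largest, 0.24, followed by Itgb8 with 0.22 and Itga4 with 0.19. SD falls with level on these arrays, as the plot of spread between litters shows, and dim probe sets are shrunk by RMA.

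**Figure D3:**
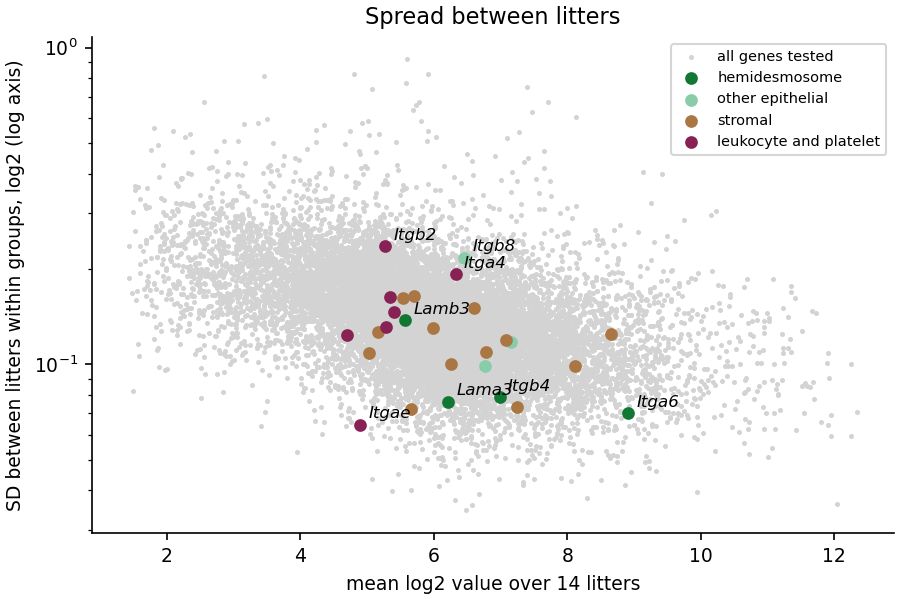
SD between litters within groups (log2 units, log axis) against the mean log2 value over 14 litters, for all 14497 genes tested (grey) and the 27 integrin and laminin genes (coloured by class). Itga6, Itgb4 and Lama3 lie low in the grey cloud, as do Itgae, Lama5 and Itgb5, and Itgb2, Itgb8 and Itga4 lie high in it.

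No litter held the highest or the lowest value of more than 5 members. Corn oil replicates 5 and 7 each held the highest value of 5 members, and flutamide replicates 4 and 5 each held the lowest value of 5. The mean log2 value of the 4 hemidesmosome genes ran from 6.80, in replicate 7, to 7.01, in replicate 6, in flutamide litters, and from 6.85, in replicate 2, to 7.004, in replicate 6, in corn oil litters. The arrays differed in the SD of their values over genes, which was lowest in flutamide replicate 7, at 1.48, and highest in corn oil replicate 1, at 1.60. Deviations from the group means followed this array SD with r of 0.72 for Itga6, 0.79 for Itgb1, 0.71 for Lamc1 and -0.76 for Itgae over the 14 litters. Over all genes the median of that r was 0.28 above the median level and -0.19 below it. These correlations share the arrays and their normalisation and are given as a description.

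**Figure D4:**
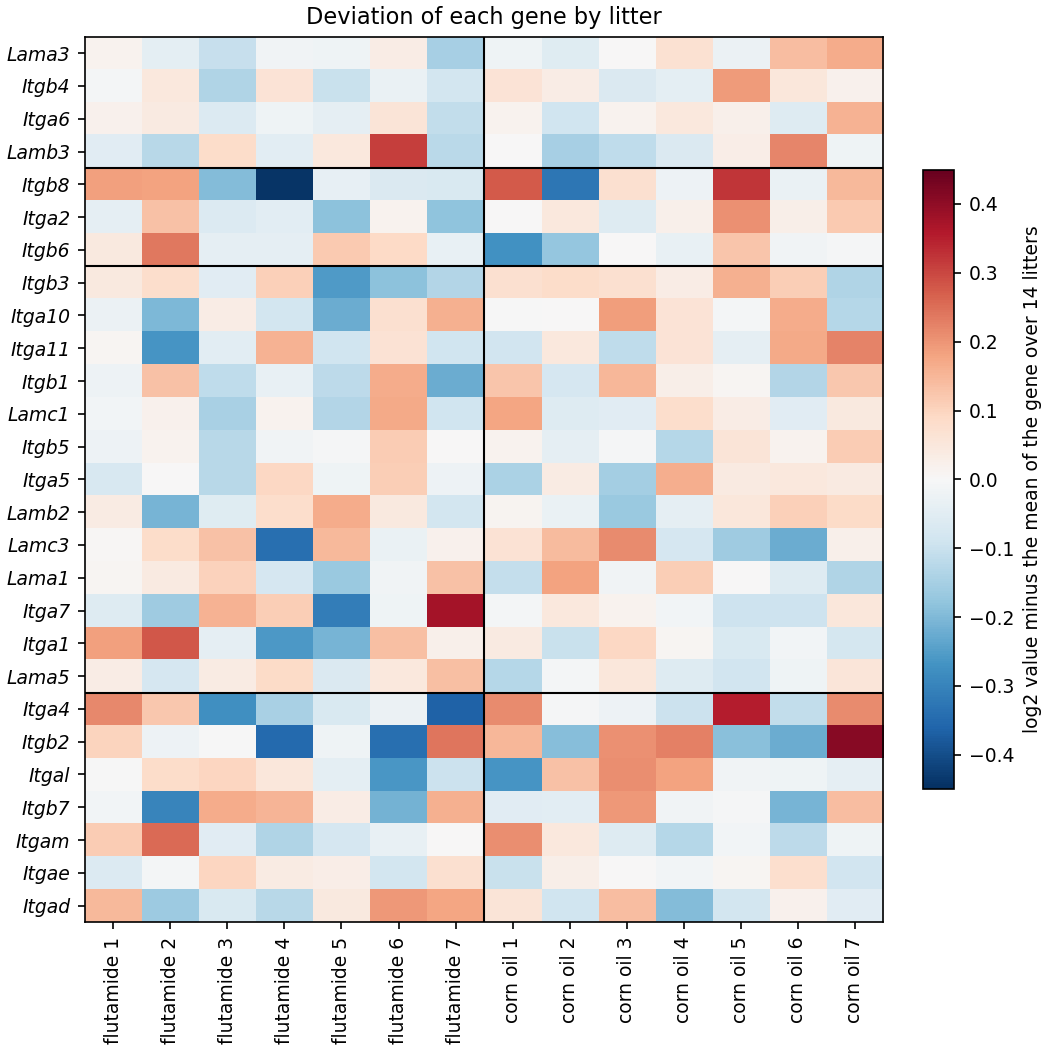
Log2 value of each gene in each litter minus the gene's mean over 14 litters, with 7 flutamide litters on the left and 7 corn oil litters on the right, and classes separated by lines. Itgb2, Itgb8, Itga4 and Itga7 show the strongest colours, and Itga7 differs widely between flutamide replicates 5 and 7. No class as a whole changes colour at the line between the groups.

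Partner genes were compared across litters after the group means were removed. The pairs measured were chains of 1 complex, a receptor chain with a ligand chain, a hemidesmosome partner, and members with a skeletal muscle or leukocyte marker. Of 26 partner pairs listed, 12 had both genes measured, and 0 passed a two-sided permutation test after Benjamini-Hochberg adjustment over the 12. By Pearson's r 0 were at an unadjusted p under 0.05, and by Spearman's rho 1 was. Lama3 and Lamb3, which assemble into 1 laminin, had r = 0.49 (permutation p = 0.0779, adjusted 0.472) and rho = 0.37 (permutation p = 0.200, adjusted 0.650) over 14 litters. Their r was 0.52 without the 2 litters farthest from the Lama3 median (permutation p = 0.0927), 0.48 within flutamide litters and 0.54 within corn oil litters. Itga6 and Itgb4, the chains of the hemidesmosome integrin, had r = 0.18 (permutation p = 0.561, adjusted 0.841) and rho = 0.27 (permutation p = 0.367, adjusted 0.880), and r = 0.31 without the 2 litters farthest from the Itga6 median. It was 0.61 within flutamide litters and -0.11 within corn oil litters. Itgb4 had r = 0.04 with Lamb3, its ligand's chain, and -0.12 with Col17a1, with adjusted permutation p of 0.941 and 0.937, and rho of -0.05 and -0.13. Within groups the signs were opposite: the r of Itgb4 with Lamb3 was -0.29 in flutamide and 0.41 in corn oil litters, and that with Col17a1 was 0.62 in flutamide and -0.67 in corn oil litters. The r within groups had opposite signs for 9 of the 12 pairs, and the difference between groups was not tested.

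None of the leukocyte or Itgb1 pairs passed. Itgb2 had r = 0.09 with Itgal, 0.22 with Itgam and 0.19 with Ptprc, the leukocyte common antigen, and Itgb7 had r = 0.25 with Itgae and -0.33 with Itga4. Itgb1 had r = -0.02 with Itga5 and -0.29 with Itga7. Within groups the r of Itgb1 with Itga5 was 0.54 in flutamide and -0.57 in corn oil litters, and with Itga7 it was -0.47 in flutamide and 0.45 in corn oil litters. For Itgb7 it was 0.74 in flutamide and -0.47 in corn oil litters with Itgae, and -0.70 in flutamide and 0.26 in corn oil litters with Itga4. Itgb2 with Ptprc had -0.15 in flutamide and 0.62 in corn oil litters. Over these 7 pairs rho ran from -0.40 to 0.37, and the adjusted permutation p was at least 0.841 for r and 0.650 for rho. Itga4 and Itgb1 were not among the listed pairs, and their r of 0.56 was not tested. Deviations of both followed the array SD, with r of 0.55 for Itga4 and 0.79 for Itgb1. Itga7 and Acta1, skeletal muscle actin, were the listed pair farthest from 0, with r = -0.59 (permutation p = 0.0787, adjusted 0.472) and rho = -0.60 (permutation p = 0.0413, adjusted 0.496). Their r was -0.65 within flutamide litters and -0.36 within corn oil litters. Without the 2 litters farthest from the Itga7 median it was -0.50 (permutation p = 0.171). With single litters left out it ran from -0.73, without flutamide replicate 6, to -0.34, without flutamide replicate 5. Over all 14 litters, with array SD removed beside the group means, it was -0.77 (permutation p = 0.00465, adjusted 0.0558).

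**Figure D5:**
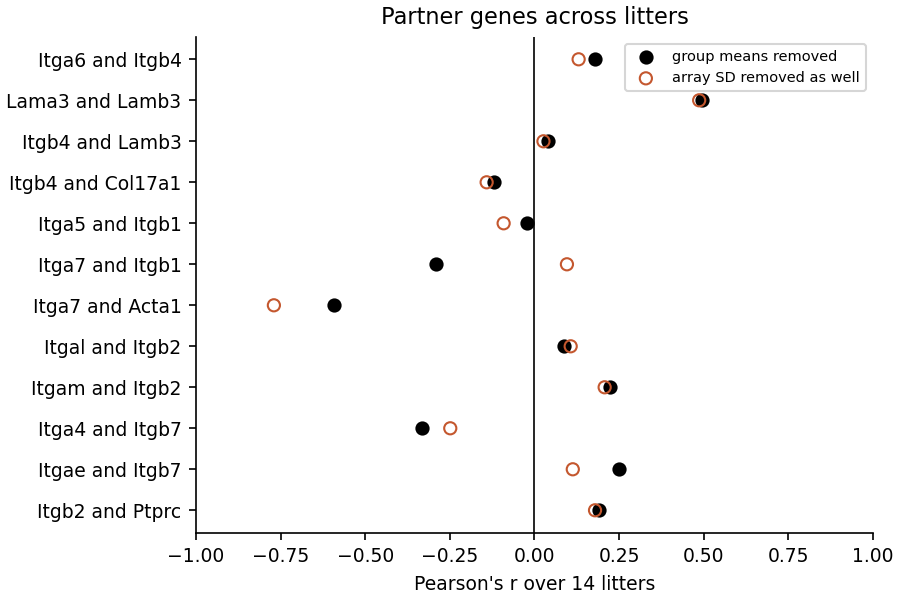
Pearson's r over 14 litters for 12 partner pairs, after removal of the group means (filled) and of the array SD as well (open). Lama3 with Lamb3 lies at 0.49 on both measures, Itga7 with Acta1 lies lowest at -0.59 and -0.77, and removal of array SD turns Itga7 with Itgb1 to 0.10.

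Over all 351 pairs of members the median r was 0.0043, and it was -0.0059 between classes. Within classes it was 0.16 over 6 hemidesmosome pairs, 0.45 over 3 other epithelial pairs, -0.04 over 78 stromal pairs and -0.02 over 21 leukocyte pairs. The highest r was that of Itga6 and Itgb1, which form a laminin receptor outside the hemidesmosome. It was 0.80 (rho = 0.81), 0.88 without the 2 litters farthest from the Itga6 median and, over all 14 litters, 0.55 with array SD removed. The lowest was that of Itgae and Lamc1, at -0.80 (rho = -0.76). It was -0.63 without the 2 litters farthest from the Itgae median and, over all 14 litters, -0.56 with array SD removed. Both were picked as the ends of 351 values and so carry no test.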

How the data were processed

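Foreskin RNA of 14 litters was measured on Affymetrix Gene 1.0 ST arrays. The authors deposited log2 values of 28826 probe sets, made with RMA per the submitters' processing notes, with the version and the genome build not given in the sources used here. That they are log2 follows from their range, 0.669 to 13.8. Detection calls were not used, and no statement on presence is made. The number of arrays limits the precision.

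GEO's platform annotation named 15209 probe sets with 1 symbol, 306 with several and 13311 with none or not listed, and only the first were used, updated by gene number through RefSeq (GRCr8), which matched 14471 of 14497 genes. The brightest probe set stood for a gene. The group test was that of limma 3.58.1 (lmFit, eBayes; R 4.3.3). It was two-sided, and p-values were adjusted by Benjamini-Hochberg across the 14497 genes, with 0.05 as threshold. The exact permutation test used all 3432 splits, with a smallest possible p of 0.000583. Partner pairs were tested with 100000 resamples within groups. Scripts were tested on simulated data.

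All members were named with their difference. Values by litter were given for the hemidesmosome class and for the 4, 3 and 2 smallest p-values of the stromal, leukocyte and other epithelial classes, and of each list of other genes the 2 with the smallest p-values were named. Members, classes and lists were chosen with earlier results of these data known. Each sample stands for 1 litter. Sample titles call the samples biological replicates and give no batch.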

Additional observations from a re-analysis of the deposited data

Results flagged for a closer look

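In each group of 7 litters, the gap between the highest or lowest litter and its nearest neighbour was set against the whole range of the group, for all 27 genes. Of the 54 groups examined 2 stood out, and about 1 in 20, or 2.7, would do so by chance. Itgb3 had a log2 value of 6.94 in corn oil replicate 7, while the other corn oil litters lay between 7.11 and 7.24. Without that litter the log2 difference of Itgb3 was -0.14. Lamc3 had a log2 value of 5.20 in flutamide replicate 4, while the other flutamide litters lay between 5.51 and 5.69. Without that litter its log2 difference was 0.06.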

How the results depend on the processing

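The count of members called, 0, held under all 24 other settings, with a lowest adjusted p of 0.450 for any member. The count at an unadjusted limma p under 0.05 was 0 to 1 with single litters left out. It was 1 of 27 without corn oil replicate 7 (Itgb3), without flutamide replicate 1 (Itga4) or without flutamide replicate 2 (Itga2), and 0 in the other settings. Over all genes 9.16% were at such a p with all litters kept, so these counts single out no member. That share is not given here for the fits with a litter left out. The sign of the difference held in every setting for 16 of 27 members, and the others lay near 0. With each litter centred on its own median Lama1 was -0.0051 and Lamc3 -0.0075. With quantile normalization once more Itgam was -0.0040, Itgb5 0.0085, Lama1 -0.013, Lamb2 0.0047 and Lamc3 -0.0024. With array weights Itga7 was -0.017, Lama1 -0.012 and Lamb2 0.0049. Without both ends of array spread, corn oil replicate 1 and flutamide replicate 7, a setting added with earlier results known, Itga7 was -0.032, Itgae -0.00047, Lama1 -0.032 and Lamb2 0.0085. With single litters left out Lama1 ran from -0.016 to 0.037, Itgb7 from -0.036 to 0.048, Itga5 from -0.036 to 0.016, Lamc3 from -0.033 to 0.061, Lamb2 from -0.035 to 0.028, Itgb5 from -0.032 to 0.0099, Itga1 from -0.012 to 0.078, Itgam from -0.019 to 0.059, Lamb3 from -0.021 to 0.067 and Itga7 from -0.033 to 0.081. The count of partner pairs past the test was 0 in every setting. Their r changed sign for Itga5 with Itgb1 (0.015 centred), Itgb4 with Lamb3 (-0.013 pooled over groups) and Itga7 with Itgb1 (0.10 with array SD removed). Without the 2 litters farthest from the median of the first gene, a total of 3 pairs changed sign, to 0.07 for Itgb4 with Col17a1, -0.05 for Itgal with Itgb2 and 0.46 for Itga5 with Itgb1. Leaving out single litters, r ran from -0.25 to 0.15 for Itga5 with Itgb1, -0.054 to 0.16 for Itgb4 with Lamb3, -0.45 to 0.16 for Itgb4 with Col17a1, -0.13 to 0.21 for Itgal with Itgb2 and -0.55 to 0.062 for Itga7 with Itgb1. The cause of these changes was not tested.

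Groups share replicate numbers, which the labels do not tie to a dam, day or batch. Same-numbered litters correlated from -0.07 to 0.15 in their deviations, over 0.1 in 1 of 7 pairs, and 2 of 14 samples correlated best with their own number. With the number as a replicate block 0 members were called and 0 were at an unadjusted p under 0.05, and r was 0.17 for Itgb4 with Col17a1 and 0.27 for Itga5 with Itgb1. Dim members lie where RMA shrinks differences, which limits what their small values can show.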
